A study of Mus musculus with 10 samples.

Results

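SOX9 peaks listed for hair follicle stem cells lay at the edges of 676 gene loci and overlapped peaks listed for epidermal cells. The regions described here are 570 SOX9 peaks, out of 8181 in the first peak list of hair follicle stem cells (HFSCs), or 6.97%. Each was chosen because it overlapped by at least 1 bp a peak of the second HFSC list, which holds 2989, and a peak of the list from interfollicular epidermal (IFE) cells, which holds 5209, and because it lay within 1 kb of the start or end of a gene locus in the expression table. The choice rests on the peak positions themselves, so presence in all lists and nearness to an edge are given as description only.

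Binding was mapped by ChIP-seq, which sequences DNA pulled down with a SOX9 antibody, in 2 libraries of HFSCs and 1 of IFE cells, and RNA was sequenced in 4 HFSC libraries, 2 labelled Sox9 conditional knockout (cKO) and 2 control. All cells came from the back skin of mice whose follicles were resting (telogen). The series asked how SOX9 governs the secreted signals that stem cells give to their niche. The ChIP-seq mice were CD-1 females of postnatal days 52 to 60 that received no treatment. Their HFSCs were sorted as high in integrin α6, positive for CD34 and negative for ScaI, and their IFE cells by the same gate but negative for CD34. The RNA-seq mice were of mixed C57BL6 background, and all of them, controls included, received RU486 to activate CrePGR, a Cre recombinase fused to the progesterone receptor. Replicate 1 of each genotype was male, treated on days 48 to 61 and taken at day 75. Replicate 2 was female, treated on days 53 to 66 and taken at day 80. The sort for RNA added a YFP reporter. The genotype field calls the controls wild type and their titles call them Het. The sources used here do not state which promoter drives CrePGR or how many mice made up a library. The RNA replicates differ in sex and age and so come from different mice.

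SOX9 is a transcription factor whose HMG box bends DNA and reads a short core sequence in the minor groove. In the hair follicle it is made by the bulge stem cells and by the outer root sheath, and bulge cells need it to keep their identity. Gene starts carry promoters, where RNA polymerase is loaded, and many promoters of widely expressed genes are rich in CG dinucleotides, GC boxes (bound by the SP family) and CCAAT boxes (bound by NF-Y) and hold open chromatin in most cell types.

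Promoter sequences of 4 genes with a peak at the 5′ end are shown so that the letters under such peaks can be read. Eif3b and Psmd5 were the promoters among 12 candidate genes that held a SOX core, and Atf3 and Psma7 stand for the larger number that held none. Each is the 250 bases before the annotated start, from RefSeq, build GRCm38.p6, written 5′ to 3′ on the strand of the gene. In the Eif3b and Psmd5 promoters, capitals mark the SOX core ACAAT or ACAAAG on either strand. In the Atf3 and Psma7 promoters, capitals mark the GC box GGGCGG on either strand, and overlapping boxes run together.
Eif3b, chr5:140419055-140419304, plus strand: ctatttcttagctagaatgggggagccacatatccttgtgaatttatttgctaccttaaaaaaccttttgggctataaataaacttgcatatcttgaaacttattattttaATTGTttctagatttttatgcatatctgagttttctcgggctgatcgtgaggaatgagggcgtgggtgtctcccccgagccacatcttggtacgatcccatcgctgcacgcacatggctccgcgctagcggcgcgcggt
Psmd5, chr2:34870963-34871212, minus strand: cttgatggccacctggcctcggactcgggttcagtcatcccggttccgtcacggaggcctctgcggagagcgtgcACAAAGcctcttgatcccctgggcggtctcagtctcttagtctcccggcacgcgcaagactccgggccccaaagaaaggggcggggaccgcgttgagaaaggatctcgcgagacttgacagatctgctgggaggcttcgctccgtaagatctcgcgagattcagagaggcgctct
Atf3, chr1:191183334-191183583, minus strand: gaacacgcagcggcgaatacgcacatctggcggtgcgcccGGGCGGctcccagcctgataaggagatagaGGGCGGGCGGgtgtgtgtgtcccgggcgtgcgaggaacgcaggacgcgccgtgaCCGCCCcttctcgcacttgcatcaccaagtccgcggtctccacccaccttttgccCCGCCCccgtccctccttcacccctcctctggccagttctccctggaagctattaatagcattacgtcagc
Psma7, chr2:180042465-180042714, minus strand: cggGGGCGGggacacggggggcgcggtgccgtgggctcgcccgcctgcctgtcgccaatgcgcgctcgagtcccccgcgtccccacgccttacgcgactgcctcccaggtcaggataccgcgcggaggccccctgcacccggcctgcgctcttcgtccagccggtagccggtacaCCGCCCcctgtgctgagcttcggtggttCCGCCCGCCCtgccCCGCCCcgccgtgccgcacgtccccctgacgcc

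A SOX core stood once in the promoter of Eif3b, a subunit of the translation initiation factor eIF3, and once in that of Psmd5, an assembly chaperone of the proteasome cap. None stood in the 250 bases of Atf3, a stress-induced transcription factor, or of Psma7, a subunit of the 20S proteasome core. Those promoters held 5 GC boxes each. GC made up 44.8% of the Eif3b sequence, 62% of Psmd5, 65.2% of Atf3 and 77.2% of Psma7.

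Peaks present in all lists lay at locus edges more often than the other peaks of HFSC list 1. Of the 1248 list 1 peaks found in all lists, 570 lay at an edge, or 45.7% (exact 95% interval 42.9 to 48.5). Of the 6933 peaks missing from at least 1 list, 1137 lay at an edge, or 16.4% (15.5 to 17.3). Read the other way, 33.4% of the 1707 edge peaks of list 1 were in all lists (31.2 to 35.7). Intervals here are Clopper-Pearson and cover counting error only, and with 1 library behind each list no spread between replicates enters them.

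Most of the peaks sat on the edge itself. The peak covered a locus edge in 450 of 570 cases, or 78.9% (75.4 to 82.2), against 63.2% (60.4 to 66.05) of the edge peaks missing from a list. Those other edge peaks were also narrower in HFSC list 1, with a median width of 582 bp against 698 bp. What part width has in the covering shares was not tested. The 570 peaks touched 1085 peak and gene pairs and 1071 genes, because the deposited loci are often shared: 612 of these genes shared a locus with another gene and 459 stood alone. There were 309 peaks that reached 1 gene each and 145 that reached 2 each, and 1 peak reached 13. Chromosome 7 held 56 of the peaks, chromosome 11 held 53 and chromosome 4 held 42, and no peak lay on the mitochondrial chromosome.

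Nearly all peaks that could be assigned an end lay at the 5′ end. A strand was taken from RefSeq for genes alone in their locus, which left 321 of the 570 peaks assignable and 249 not. Of the 321, 307 lay at a 5′ end, or 95.6% (92.8 to 97.6), and 33 at a 3′ end, or 10.3% (7.18 to 14.1), with 19 counted at both. Among edge peaks missing from a list the shares were 88.1% (85.3 to 90.6) at a 5′ end and 15.1% (12.4 to 18.2) at a 3′ end. The 5′ end itself was covered by 254 of the 307 peaks, or 82.7%, against 71.8% of the others, which as a class were narrower.

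The peak centres were tightly placed around the start. The median centre lay 51.5 bp before the 5′ end in HFSC list 1, with quartiles of 184 bp before and 96.5 bp after it. In HFSC list 2 the median was 33 bp before the start and in the IFE list 5.5 bp before it. Between 69.8% (IFE list) and 74.0% (HFSC list 2) of the 331 peak and gene pairs had the centre within 250 bp of the start. The other edge peaks of list 1 had a median of 38.5 bp before the start and 66.2% within 250 bp.

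**Figure D1:**
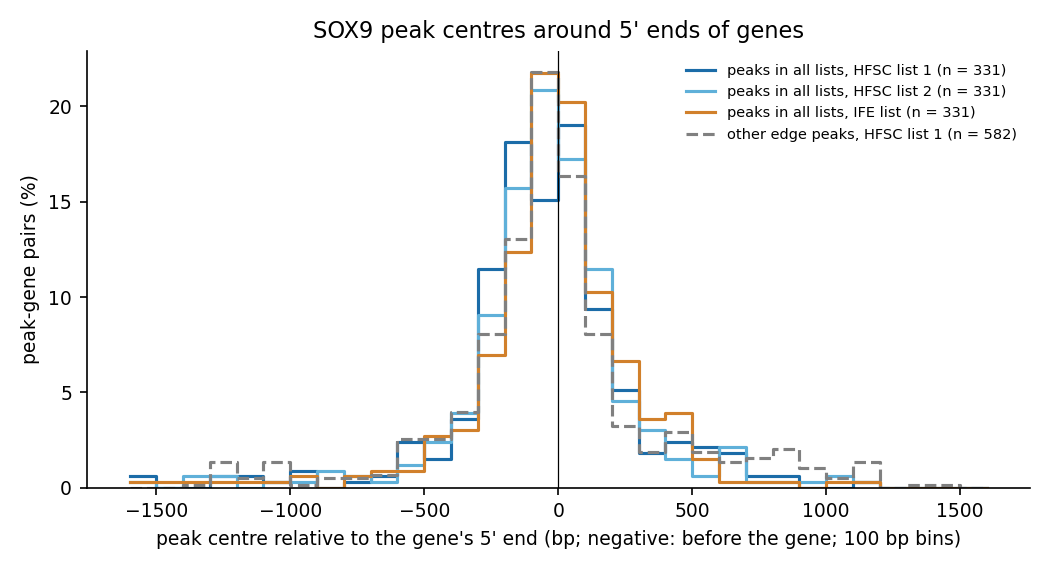
Distance from the peak centre to the 5′ end of the gene, in bp, for peaks in all lists at locus edges (solid lines, 1 for each list, 331 pairs) and for edge peaks of HFSC list 1 missing from a list (dashed, 582 pairs), as percent of pairs in 100 bp bins; a few pairs lie outside the range drawn. All lines are highest within 200 bp of the start, and the medians lie 51.5, 33 and 5.5 bp before it in HFSC list 1, HFSC list 2 and the IFE list.

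Some of these peaks stood between genes that run in opposite directions. Of the 307 peaks at a 5′ end, 24 lay at the 5′ ends of genes on both strands, or 7.82% (5.07 to 11.4), against 6.81% (4.84 to 9.27) of the other edge peaks, so the shares overlap in their intervals. The pairs included Psma7 with Ss18l1, Atp5h (a subunit of the mitochondrial ATP synthase) with Kctd2, Cct5 (a subunit of the CCT chaperonin) with Fam173b, and Mdh2 (mitochondrial malate dehydrogenase) with Styxl1. The peak between Psma7 and Ss18l1 spanned chr2:179777086-179777653 in build mm9, which all peak and locus positions here use.

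Of the 321 assignable peaks, 14 lay at a 3′ end and at no assigned 5′ end. Their genes ranged from abundant (Lgals7) to near 0 FPKM (Cpne9). Ends in shared loci, or in loci without a strand, were left out of this count. The peak 103 bp past the 3′ end of Men1, for example, also covered an edge of a locus shared by 4 genes. Lgals7, the epithelial galectin-7, had its peak 742 bp past the 3′ end of the gene. Sfn, the epithelial 14-3-3 sigma protein, had it 285 bp past the end. The peak at Zfp36, which encodes an mRNA decay factor, covered the 3′ end, as did that at Uqcrc1, a core subunit of respiratory complex III.

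The median width of these peaks differed little between lists, although single peaks varied. The median width was 698 bp in HFSC list 1, 686.5 bp in HFSC list 2 and 679 bp in the IFE list. Peaks in all lists that lay away from edges, 678 in number, had medians of 759, 642 and 582 bp in the same order. A peak was narrower in the IFE list than in HFSC list 1 in 53.3% of cases at edges (49.1 to 57.5) and in 80.7% away from them (77.5 to 83.6). Between the HFSC lists the shares were 52.98% (48.8 to 57.1) and 75.5% (72.1 to 78.7). For a single peak at an edge, the widest of its 3 widths was a median of 1.45 times the narrowest. Width is the one measure of size in these lists, which give no height or score.

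**Figure D2:**
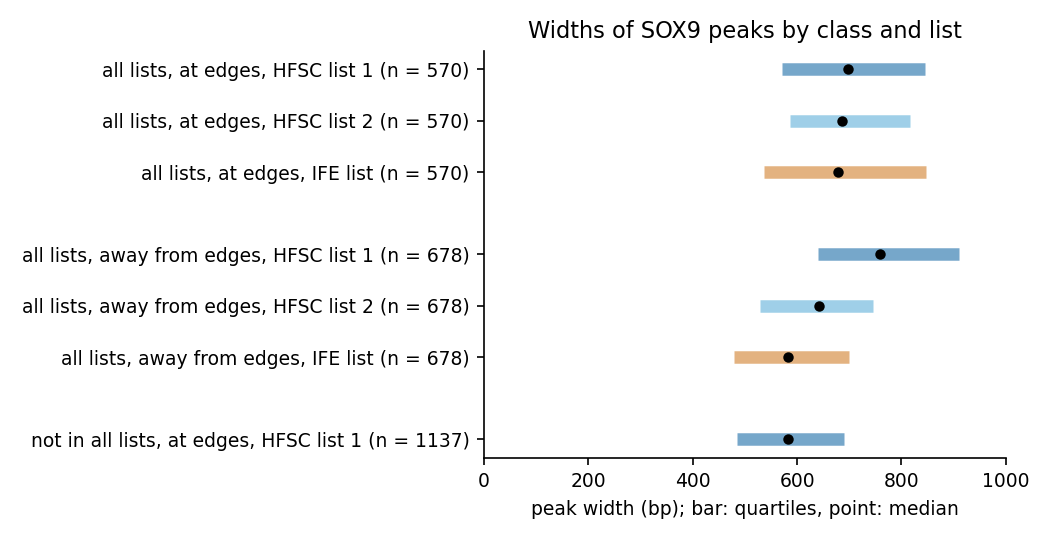
Peak width in bp by class of peak and by list; the bar spans the quartiles and the point is the median, with the number of peaks in brackets. At locus edges the medians of the 3 lists lie between 679 and 698 bp, and away from edges they lie at 759, 642 and 582 bp.

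Peak centres lay close together between lists, which the choice of overlapping peaks partly fixes. Peaks that must overlap cannot have centres far apart, so the offsets are given as description only. The centre of the best overlapping peak lay a median of 78.5 bp away in HFSC list 2 and 74.5 bp away in the IFE list, against 61.25 and 66.5 bp for peaks away from edges. A few peaks stood apart in width. The widest, 16778 bp, spanned chr11:3030630-3047407 at the shared locus of Drg1, Eif4enif1 and Sfi1, and the IFE peak there was 1976 bp wide. The peak at AY036118, chr17:39979726-39986066, was 6341 bp wide in HFSC list 1 and 6021 bp in the IFE list. Gm10801, a predicted gene on chromosome 2, had 3 peaks, and Gm10800, its neighbour, had a further one of 1323 bp. The sources used here do not state how reads were shared between repeated copies there, so these regions are uncertain, and without the peaks over 1500 bp the count was 561. The narrowest peaks lay at Safb and Safb2, Strn, Dnajb1, Hsd11b2, and the locus of Ppp1cb and Yes1, the last at 256 bp.

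Some peaks stood close to the 1 kb limit on either side of it. Just inside it lay the peaks at Kctd17 (961 bp from the edge), Irf2bp2 (944), Krt14 (935), Junb (934) and the locus of Cacna1d, Chdh and Dcp1a (908). Just outside lay those at Arid5a (1014), Foxo3 (1019), Vwa1 (1033), Neat1 (1040) and Grap2 (1040).

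RNA levels are given as FPKM, fragments scaled by transcript length and by the library. In bulk samples such as these, fewer cells of a type and less RNA per cell cannot be told apart. The 7 HFSC markers checked (Krt15, Cd34, Lhx2, Sox9, Nfatc1, Tcf7l1, Tbx1) all stood at 1 FPKM or more in each library. They summed to 9502 FPKM in cKO 1, 11006 in control 1, 11688 in cKO 2 and 10507 in control 2. Krt15 alone gave 8703, 9613, 10894 and 9375 of these sums, so they say little about the other markers. Lhx2, for one, was lower in the library labelled cKO of each pair. The 3 endothelial markers summed to 0.249 or less. Summed levels lay between 1.08 and 3.20 FPKM for 4 melanocyte markers and between 6.23 and 8.96 for 4 immune markers. The 4 suprabasal markers summed to 2505 in cKO 1, 2641 in control 1, 4662 in cKO 2 and 7275 in control 2, so they were lower in the library labelled cKO of each pair. The 3 sebocyte markers summed to 284, 183, 291 and 244 in the same order, and the 4 fibroblast markers to 22.4, 16.8, 21.7 and 8.29, so both were higher in the library labelled cKO of each pair. What part these have in the genotype differences below was not tested. Sox9 itself stood at 71.3 FPKM in cKO 1, 82.7 in control 1, 80.5 in cKO 2 and 46.5 in control 2. Gene-level FPKM includes reads outside any deleted part, and the level did not follow the labels in pair 2, so libraries are called by their labels.

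Genes at these peaks were expressed more often than the table as a whole. A mean of at least 1 FPKM over the 4 libraries was reached by 784 of 1071 genes, or 73.2%, by 67.5% of genes at the other edge peaks and by 38.8% of all 37298 genes. Of all genes 12438, or 33.3%, were listed at 0 in every library, against 61 genes at these peaks, or 5.70%. For genes with a peak at the 5′ end, 93.3% passed 1 FPKM, against 90.5% for the other edge peaks and 47.1% of all genes alone in a stranded locus. Genes at peaks in all lists and genes at other edge peaks thus differed by only a few percentage points.

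The share of expressed genes with such a peak grew from the lowest to the highest expression quartile. It was 5.42% over all 14455 genes of at least 1 FPKM, and 2.87% over every gene listed. Ordered by mean control FPKM, the share was 2.96% (2.43 to 3.57) in the lowest quartile, 5.26% (4.55 to 6.04) in the second, 6.56% (5.77 to 7.42) in the third and 6.92% (6.11 to 7.79) in the highest. The intervals of the third and the highest quartile overlap, and the lowest quartile lies apart. Other edge peaks showed the same order, from 5.84% to 11.95%.

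Median levels differed from all genes in every library. Among genes of at least 1 FPKM, those at peaks in all lists had medians of 18.5 FPKM in cKO 1, 19.6 in control 1, 16.1 in cKO 2 and 15.5 in control 2. All expressed genes had medians of 12.2, 12.7, 11.2 and 11.3 in that order. Genes at other edge peaks lay close below the first set, at 16.7, 17.6, 15.0 and 14.6.

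**Figure D3:**
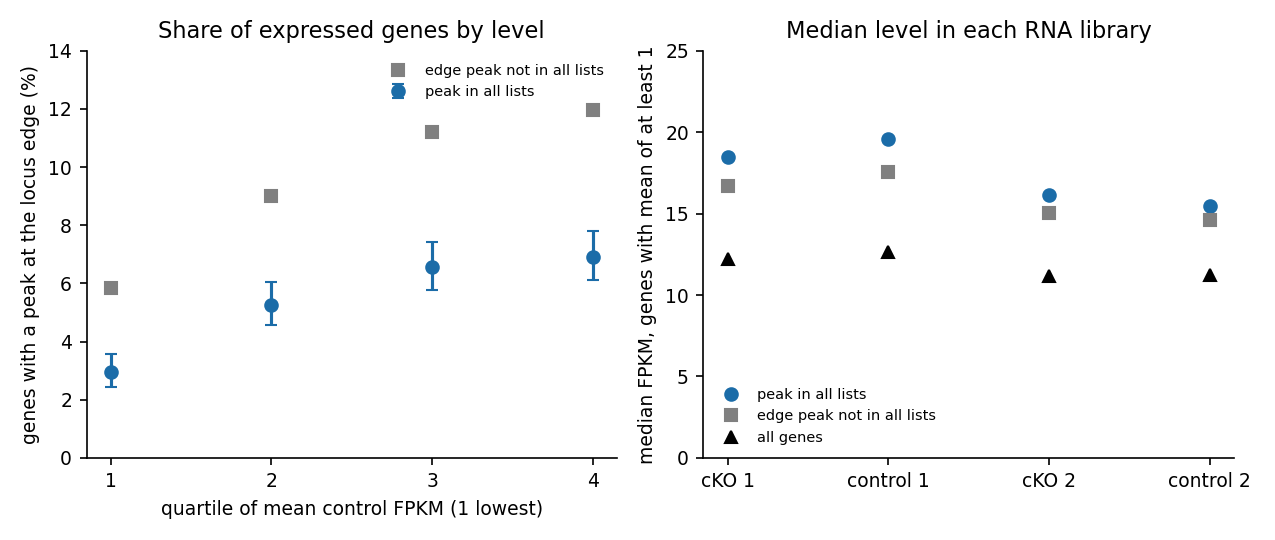
Left, the percent of expressed genes with a peak at the locus edge in each quartile of mean control FPKM, with exact 95% intervals for peaks in all lists; right, the median FPKM of expressed genes in each RNA library. The share at peaks in all lists goes from 2.96% to 6.92%, and in each library the median of these genes lies above that of all genes.

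Krt15 and Krt5, keratins of basal and bulge cells, had the highest control levels of all genes at these peaks. Of 21 genes in a list of basal keratins, integrins and laminins, 4 had such a peak (Krt15, Krt5, Krt14, Itgb4), or 19.0% against 5.42% of all expressed genes. Krt15, a keratin of bulge cells, stood at 8703 FPKM in cKO 1, 9613 in control 1, 10894 in cKO 2 and 9375 in control 2. Krt5, which pairs with Krt14 in basal filaments, stood at 7101, 7157, 8536 and 6277 in that order. Krt14 stood at 1620, 2002, 2706 and 2415. The genotypes overlapped for all 3 keratins.

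The keratin peaks stood off the gene and did not cover its edge. At Krt5 the peak chr15:101543699-101544862 lay 377 bp before the 5′ end, and its width was 1164 bp in HFSC list 1, 771 in HFSC list 2 and 562 in the IFE list. At Krt14 the peak chr11:100069797-100070432 lay 935 bp before the 5′ end, with widths of 636, 621 and 727 bp. At Krt15 the peak chr11:99997712-99998465 lay 449 bp beyond the higher-coordinate end. At Itgb4, the integrin β4 of hemidesmosomes, the peak covered the lower-coordinate end.

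Desmosome genes were also among them, a list drawn up after the members were seen. Perp, Pkp3, Jup and Dsc3 were 4 of its 15 genes, or 26.7%, beside 2.87% of every gene listed. As the list was made with the members known, this share cannot show an excess. Perp, a tetraspan membrane protein of desmosomes, stood at 1471 FPKM in cKO 1, 1447 in control 1, 1673 in cKO 2 and 1966 in control 2. Pkp3 (plakophilin 3) lay between 470 and 533, Jup (plakoglobin) between 388 and 571 and Dsc3 (desmocollin 3) between 142 and 319, and in each of them the genotypes overlapped. The peaks at Perp, Pkp3, Jup and Dsc3 all covered an edge of the locus.

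Immediate early genes had the highest share among the lists with 20 or more genes. Of 28 genes for AP-1, early growth response and other immediate early factors, 6 had a peak in all lists, or 21.4% beside 5.42% of all expressed genes. Another edge peak was at 9 of the 28. The 6 were Zfp36, Atf3, Junb, Jund, Fosl2 and Fosl1, of which the last 4 encode subunits of AP-1. Junb had 3 such peaks: chr8:87502347-87503002 over the 5′ end, chr8:87503551-87504701 at 934 bp before it, and chr8:87499760-87500501 at 309 bp past the 3′ end. Only Gm10801 had as many at a locus.

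Levels of these factors did not separate the genotypes. Atf3 stood at 1854 FPKM in cKO 1, 1031 in control 1, 746 in cKO 2 and 837 in control 2. Zfp36 stood at 1241, 1188, 533 and 721 in the same order. Junb stood at 753, 448, 600 and 716. In the male pair Atf3 and Junb were higher in the library labelled cKO and in the female pair lower, and Fosl2 was lower in both, at 59.5 against 61.4 and 24.2 against 30.4.

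**Figure D4:**
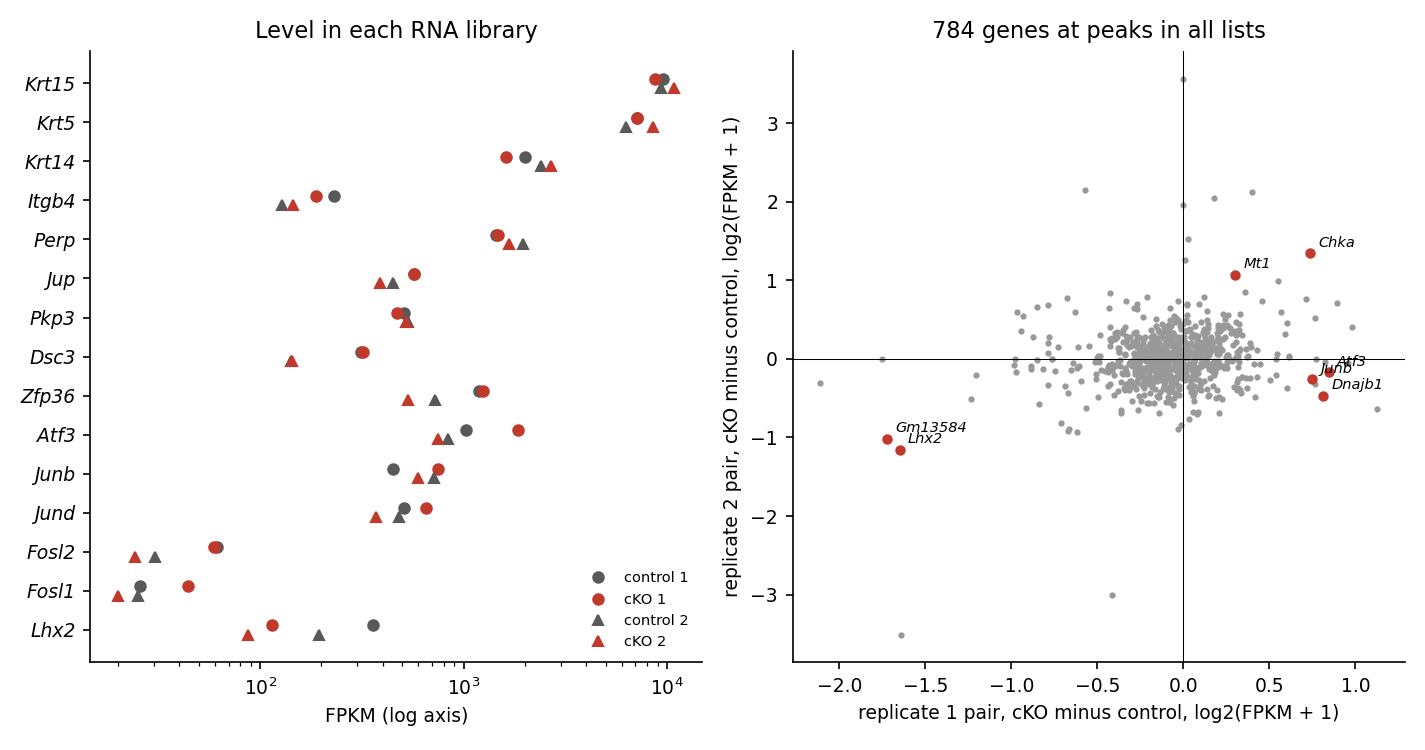
Left, FPKM on a log axis in each RNA library for genes of keratin, adhesion and immediate early lists and for Lhx2 (circles replicate 1, triangles replicate 2; red cKO, grey control); right, cKO minus control in log2(FPKM + 1) in the replicate 1 pair (x axis) and the replicate 2 pair (y axis) for the 784 expressed genes. Lhx2 lies low in both pairs, and for Junb and Atf3 the pairs have opposite signs.

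Few bulge transcription factors and no niche signals had such a peak. Of 22 bulge stem cell factors, 1 had such a peak, Lhx2, and 3 had another edge peak. Of 31 secreted signals of the niche none had one, and 2 had another edge peak. The share for bulge factors, 4.55%, lay near the 5.42% of all expressed genes, and with 30 expressed niche genes a count of 0 is close to that background too.

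Housekeeping lists ranged from below to above the background of 5.42%, with small counts in each. The shares of expressed genes were 12.5% for translation factors (8 of 64), 11.5% for splicing factors (7 of 61), 8.89% for proteasome and ubiquitin genes (12 of 135), 8.65% for chromatin modifiers (9 of 104) and 7.59% for cytosolic ribosomal proteins (6 of 79). Mitochondrial genes, at 4.10% (8 of 195), lay below it, and none of the 22 expressed histone genes had such a peak. Of 18 heat shock and chaperone genes, 3 had one: Dnajb1 (an HSP40 co-chaperone), Hsp90b1 (the HSP90 of the endoplasmic reticulum) and Hsf1 (the heat shock transcription factor). Of the cell cycle and p53 genes, Mdm2, the ubiquitin ligase of p53, and Rb1, the retinoblastoma protein, had one out of 29 expressed.

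Examples show the range of levels in these lists. Rpl7, a protein of the large ribosomal subunit, stood at 840 FPKM in cKO 1, 680 in control 1, 2378 in cKO 2 and 1723 in control 2. Srsf5, a splicing factor, stood at 208, 293, 104 and 107. Hdac2, a histone deacetylase, stood at 39.96, 44.4, 37.9 and 39.1. Rpl7 was higher, and Srsf5 lower, in both replicate 2 libraries than in either replicate 1 library, and replicates also differ in sex and age. Rpl7 was also higher in the library labelled cKO of each pair. The mean difference was above 0 for all 6 ribosomal protein genes at these peaks, with a median of 0.36 beside -0.01 over all genes tested, and none of them was called. Ribosomal protein genes without such a peak were not compared. It was also above 0 for all 8 mitochondrial genes (median 0.19) and 7 of 8 translation factors at these peaks. It was below 0 for 5 of 7 splicing factors and 6 of 9 chromatin modifiers. Summed FPKM over all genes was higher in the library labelled cKO of each pair, at 584125 against 555420 and 903766 against 786914.

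MicroRNA genes of epithelia were also reached. A list of 7 such genes, drawn up after the members were seen, held 5 with a peak: Mir205, Mir203, Mir200a, Mir200b and Mir429. That is 71.4%, beside 2.87% of every gene listed, and a list made this way cannot show an excess. The last 3 share a locus on chromosome 4 whose higher-coordinate end was covered by the peak chr4:155433158-155434479, and RefSeq places them on the minus strand. The peak at Mir203, chr12:113368556-113369114, covered the lower-coordinate end of a locus on the plus strand in RefSeq. The peak at Mir205, chr1:195334163-195335034, lay 732 bp inside the lower-coordinate end. Mature arms are printed from RefSeq, build GRCm38.p6, because they show which of these microRNAs share a seed (bases 2 to 8, in capitals).
miR-200b-3p: uAAUACUGccugguaaugauga
miR-429-3p: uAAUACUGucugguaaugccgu
miR-200a-3p: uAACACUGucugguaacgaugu
miR-205-5p: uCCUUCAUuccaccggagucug
miR-203-3p: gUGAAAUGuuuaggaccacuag

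The seed AAUACUG was common to miR-200b-3p and miR-429-3p, and miR-200a-3p differed from it. These families are known for keeping the epithelial state, miR-205 for skin progenitors and miR-203 for the switch to differentiation. Libraries of long RNA capture such short RNAs poorly. Mir200a and Mir429 were listed at 0 in all 4 libraries and Mir205 in 3. Mir203 stood at 0.816 FPKM in cKO 1, 1.42 in control 1, 0 in cKO 2 and 7.01 in control 2. Across all small nucleolar, small nuclear and micro RNAs, 71 of 4040 had a peak in all lists, or 1.76% beside 2.87% of every gene listed. Of the 223 expressed, 20 had one, or 8.97% beside 5.42% of all expressed genes. These genes do not stand for separate peaks, so the same peak can count more than once in the share. SNORD24 and the SNORD36 entries share the locus of Rpl7a and the same peak. Snord49a, Snord49b and Snord65 share another locus and its peak.

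Motif content was read in RefSeq promoters of 300 bases, 250 before the start and 50 after it. A promoter was used where the gene stood alone in its locus, where its start was the RefSeq end of the gene, and where the RefSeq length matched the locus within 250 bp. This left 192 promoters with a peak in all lists at the 5′ end, 306 with another edge peak, and 3464 of expressed genes, beside all 27025 in the table. The peak sequences themselves were not read, since no mm9 genome was used here.

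The promoters under these peaks were rich in GC, and SOX cores were no more frequent in them as a whole than in other promoters. Median GC content was 65.7%, against 63.3% at other edge peaks, 60.7% in expressed genes and 52.7% in all promoters, and the median number of CG dinucleotides was 27, 25, 21 and 7. The core ACAAT stood on either strand in 15.6% (10.8 to 21.5), against 17.3% at other edge peaks, 19.8% in expressed genes and 31.5% in all promoters. The core ACAAAG stood in 5.73% (2.89 to 10.02), against 12.1% (8.66 to 16.3), 13.6% and 18.7%. The longer forms AACAATGG and AACAAAGG stood in 1 promoter each, or 0.521%. Their shares were 0% and 1.63% at other edge peaks, 0.491% and 0.722% in expressed genes and 1.07% and 1.56% in all promoters. No promoter held an inverted pair of ACAA and TTGT separated by 3, 4 or 5 bases. Such pairs stood in 0.231%, 0.202% and 0.173% of expressed genes, so 192 promoters are too few to show a lack of them.

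Within bands of GC content the SOX core shares gave no single order. Where GC made up 60 to 70% of the promoter, 20.5% of 112 promoters at these peaks held either core, against 24.1% at other edge peaks, 21.2% of 1366 expressed genes and 21.0% of all. Above 70% the shares were 22.2% of 45 promoters, 13.8%, 16.7% and 13.6%. Between 50 and 60% they were 20% of 30 promoters, 43.6%, 39.4% and 41.0%, a band with few promoters in the first set.

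Other promoter elements followed the same GC-rich pattern. The GC box GGGCGG stood in 78.6% (72.2 to 84.2), against 75.8%, 67.9% and 35.9% in the order used above. The motif of NRF1, a regulator of genes for respiration, stood in 17.2% (12.1 to 23.3), against 15.0%, 12.3% and 4.82%. The CCAAT box stood in 46.4% (39.1 to 53.7), against 47.4%, 41.2% and 38.0%. The TATA box TATAAA was scarce, at 2.60% (0.851 to 5.97) against 4.90%, 8.03% and 14.2%, and the AP-1 motif TGANTCA stood in 3.65% (1.48 to 7.37) against 2.61%, 4.68% and 7.92%. The motif of YY1 stood in 3.65% (1.48 to 7.37), against 0.98% (0.203 to 2.84), 1.99% and 0.699%. All motifs were searched on both strands, and a match is a description of letters. For the GC, CCAAT and TATA boxes, NRF1, AP-1 and ACAAT, the interval at these peaks included the share at the other edge peaks. For ACAAAG the share at other edge peaks lay above the interval, and for YY1 below it, and in both the intervals of the 2 sets overlapped.

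**Figure D5:**
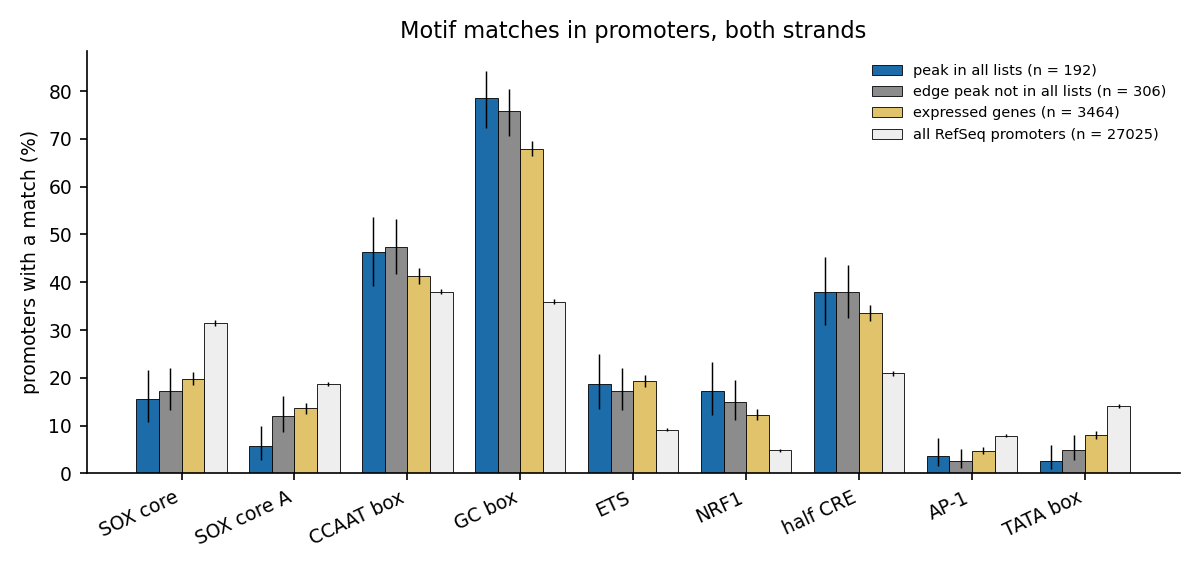
Percent of 300-base promoters with at least 1 match to each named motif on either strand, with exact 95% intervals, for genes with a peak in all lists, with another edge peak, for expressed genes and for all RefSeq promoters (SOX core is ACAAT, SOX core A is ACAAAG). GC boxes are the most frequent, at 78.6% under the peaks, and ACAAT stands in 15.6%.

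No gene at these peaks passed the threshold for genotype when genotype alone was in the fit, which does not show that levels were alike. Of 784 genes tested 0 were called at an adjusted p of 0.05 in limma, where percent called over all 14455 genes was also 0%. Before adjustment 3 of the 784 had p under 0.05 (Lhx2, Gm13584 and Snord65), where 0.643% of all genes did. All 3 were lower in the libraries labelled cKO, where 0.415% of all genes were lower and 0.228% higher. The median difference, cKO minus control, was -0.03 in log2(FPKM + 1) for these genes and -0.01 for all genes tested.

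The pairs share sex, age and treatment days, and with the replicate number as a block 1 gene at these peaks was called, Lhx2, where 0.284% of all genes were, 0.18% lower and 0.104% higher. Lhx2, a LIM homeodomain factor that keeps bulge stem cells at rest, stood at 114 FPKM in cKO 1, 359 in control 1, 87.1 in cKO 2 and 195 in control 2. Both control libraries were above both libraries labelled cKO. The difference was -1.65 in the male pair and -1.16 in the female pair, with a mean of -1.40 over the 2 pairs, a moderated SE of 0.15, which limma shares across genes, and an adjusted p of 0.0273 in limma with the block, against 1.00 without it (SE 0.49). The call was absent from the blocked fits with quantile normalization, with no filter on low genes, with no mean trend and with a trend on locus span removed.

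The Lhx2 peak was narrow in the IFE list and lay at the far end of the gene. It spanned chr2:38224006-38224854, 849 bp, in HFSC list 1, with widths of 458 bp in HFSC list 2 and 310 bp in the IFE list. It lay inside the locus, 399 bp from the end that is 3′ for Lhx2, on the plus strand, and 5′ for Gm13584, on the minus strand of the same locus. Gm13584 stood at 2.25 FPKM in cKO 1, 9.70 in control 1, 1.21 in cKO 2 and 3.47 in control 2, again with no overlap between genotypes. Its difference was -1.72 in the male pair and -1.01 in the female pair (moderated SE 0.25 with the block), with an adjusted p of 0.113 in limma with the block, and strand-specific counting is not stated, so reads of the overlapping genes cannot be told apart.

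Large differences were otherwise rare and mostly in genes of low level. At least 2-fold lower in both pairs were 3 of the 784 genes (Lhx2, Gm13584 and Snord65), where percent called was 0.277%, and at least 2-fold higher were 0, where it was 0.194%. Blocked p before adjustment was under 0.05 for 61 of them, or 7.78%, against 11.4% of all genes. Of these 34 were lower, where 5.07% of all genes were, and 27 higher, where 6.33% were. Snord65, a small nucleolar RNA in a locus of 4 genes, had the lowest mean difference, -2.58, from -1.64 in the male pair and -3.51 in the female pair (moderated SE 0.42, adjusted p of 0.0897 in limma with the block), at 1.04, 5.37, 0 and 10.4 FPKM in the library order used above. Mir203, 1 entry of SNORD36 and SNORD56 were the other low genes by the same rule, at -1.71, -1.21 and -0.88, and SNORD56 was at 0 in both female libraries. Other SNORD36 entries at the same peak were higher in cKO 1 than in control 1. They stood at 8.24 against 4.42 and 2.99 against 2.64 FPKM, and at 0 in both female libraries.

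Among the highest differences, Chka and Flrt3 were well above the filter. Chka, choline kinase alpha, stood at 20.2 FPKM in cKO 1, 11.7 in control 1, 13.9 in cKO 2 and 4.86 in control 2, differences of 0.74 in the male pair and 1.35 in the female pair (moderated SE 0.19) with an adjusted p of 0.123 in limma with the block. Flrt3, a leucine-rich repeat membrane protein, stood at 48.7, 25.8, 20.1 and 11.96 in a locus shared by 11 genes, differences of 0.89 and 0.71 (moderated SE 0.14, adjusted p of 0.103 in limma with the block). Both were higher in each library labelled cKO than in its own control, and neither passed the threshold. The locus of Chka is shared too, by 4 genes. For both genes the peak lay at an edge of the shared locus, and its distance from the gene's own ends is unknown. Mir200b (1.78), AC150277.1 (1.26), SNORA53 (1.11) and Gm10801 (0.98) had the other high differences, and Mir200b was above 0 in cKO 2 alone.

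Mt1, a metal-binding metallothionein, was the abundant gene with the largest gap in 1 pair. It stood at 1024 FPKM in cKO 1, 832 in control 1, 1755 in cKO 2 and 834 in control 2, and its peak chr8:96702435-96703474 covered the 5′ end. The difference was 0.30 in the male pair and 1.07 in the female pair, with an adjusted p of 0.344 in limma with the block. The abundant genes Lgals7, Tpt1 (translationally controlled tumor protein), Itm2b and Trim29 had mean differences of 0.22, 0.19, -0.11 and -0.01, and none was called.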

How the data were processed

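SOX9 ChIP-seq peaks were deposited as 1 list per library, with a chromosome, a start and an end for each peak; the build is mm9, and the sources used here name no peak caller or threshold. Without a score, the deposited positions were used as they are, with starts counted from 1. Expression was deposited as FPKM, per the file headers, in 1 table of 37298 genes with locus coordinates. Per the submitters' processing notes, the tools included Cufflinks 1.0.3, Bowtie, TopHat and TopHat2, and the build was mm9. FPKM is scaled by gene length and library total, so abundant transcripts lower the rest, and the depth behind a value is unknown. The 3 input libraries were not analysed here.

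Distances were taken from the peak to either end of every locus. Strand came from RefSeq (668 of 1071 genes; 876 matched by symbol). Values were tested as log2(FPKM + 1) in limma 3.58.1 (R 4.3.3; two-sided, moderated with a trend on the mean, Benjamini-Hochberg over the 14455 genes with a mean of at least 1 FPKM, threshold 0.05), a scale that understates changes of low genes. Genotype alone was the design, and the replicate number as a block was the alternative. The numbers pair the libraries by sex, age and RU486 days, per the labels, and deviations of same-numbered libraries from the group means correlated at 0.812 across genes. A p-value measures the spread between these 4 libraries only.

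Genes were named by rule: called genes, the 12 highest and the 6 lowest expressed by control level, the 6 highest and 6 lowest blocked differences, up to 6 genes of each list, and genes at the extremes of width and of the distance limit. Some genes outside it (desmosome and microRNA genes, and examples at 3′ ends and between opposite genes) were chosen after their values were seen. Members and lists were chosen with earlier results of these data known. The requirement that a promoter match the locus was added after seeing the data. The 20 motifs searched, of which the text gives the best known, were matched as exact letters.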

Additional observations from a re-analysis of the deposited data

Results flagged for a closer look

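The male pair and the female pair differed in opposite directions, by at least 0.25 in log2(FPKM + 1) each, for 48 of the 784 tested genes at these peaks, or 6.12%, beside 5.50% of all genes tested. Values are given as cKO minus control. Among the 48, Junb differed by 0.75 in the male pair and -0.25 in the female pair. Jund differed by 0.37 and -0.37, Fosl1 by 0.77 and -0.32, Dnajb1 by 0.81 and -0.47, and Sfn by 0.50 and -0.27 in the same order. The share at these peaks lay near that of all genes tested, and the genes named are examples. The pairs differ in age and RU486 days as well as in sex. With 1 pair of each sex the difference between pairs was not tested.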

How the results depend on the processing

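The count of 570 peaks lay between 450 and 619 under other overlaps, windows, lists counted and an expression filter, and was 219 when only peaks at or above the median width of their list were kept. Leaving out 1 HFSC list gave 913 to 914. The median mean control level of all genes at these peaks, 10.4 FPKM, was 19.1 with 1 gene a peak and 18.7 for genes alone in their locus, since fewer unexpressed genes sharing a locus enter. Shares of motifs stayed near those reported in the 250 bases before the start. The 0 genes called became 1 with the replicate block (Lhx2), 1 with the block and a pseudocount of 0.1 and 3 with the block and a pseudocount of 5 (AY036118, Lhx2, Snord65). Leaving out 1 RNA library gave 0 to 4, the 4 without cKO replicate 1 (Gm10800, Gm10801, Mir200b, Snord65), where the lone cKO library is assumed to vary like the controls; the cause was not tested. Of the 12 single genes followed, which were picked for the largest differences, all 135 values under other settings kept their sign. The block, the filter and the mean trend leave the estimate as it is, so under those settings the sign could not change. With a library left out, 44 of 48 kept their sign. The exceptions were SNORD56, between -2.24 and 0.49, Gm10801, between -0.93 and 2.89, SNORA53, between -0.046 and 2.27, and Mir200b, between 0 and 3.57. Depth is unknown, so no limit could be set for genes listed at 0.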
